A study of Homo sapiens with 7 samples.

Results

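The replication-dependent histone genes of human fibrosarcoma cells were followed across 7 lines that differ in PTK7, a membrane pseudokinase of the Wnt and planar cell polarity pathways. A gene was taken as a member when its older symbol begins with HIST1H, HIST2H, HIST3H or HIST4H. The probe annotation used here carries newer symbols (H1-2 for HIST1H1C, H2BC12 for HIST1H2BK), so members were found through the older symbols in the RefSeq gene table, and the older names are kept in the text. A probe was present for 70 such genes, and 35 of them were detected (detection p under 0.05 against the negative control beads) on at least 1 of the 7 arrays, out of 13640 detected genes in all. The 35 were 1 of 6 H1 genes, 8 of 17 H2A genes, 11 of 18 H2B genes, 8 of 14 H3 genes and 7 of 15 H4 genes. Of these, 25 lie on chromosome 6 and 10 on chromosome 1. Where several probes of a gene were detected, the one with the highest mean signal was used.

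Histones H2A, H2B, H3 and H4 form the core around which DNA is wound, and H1 binds the linker between cores. Most of the genes that supply them during DNA synthesis are small, lack introns and sit in clusters, and their mRNAs normally end in a stem-loop, bound by SLBP, in place of a poly(A) tail. These mRNAs accumulate in S phase under the co-activator NPAT and are degraded when replication stops. Several members, HIST1H1C, HIST1H2AC, HIST1H2BC, HIST1H2BD, HIST1H2BK and HIST2H2BE among them, are known to give polyadenylated transcripts as well. Amplification kits of the kind used here prime on poly(A), so that the arrays register mainly polyadenylated histone transcripts and not the whole histone mRNA pool.

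All cells were HT1080, an invasive human fibrosarcoma line, with 1 array per line and all 7 arrays on 1 chip. In shPTK7 cells, a pool made from 3 clones, PTK7 was silenced by a short hairpin RNA. The other 5 derived lines were stably transfected with full-length PTK7 (PTK7 cells), with the Chuzhoi mutant that has an added MT1-MMP cleavage site (Chz cells), with the soluble ectodomain (sPTK7 cells), or with the C-terminal fragments left by MT1-MMP (cPTK7/622-1070 cells) or by ADAM and γ-secretase cleavage (cPTK7/726-1070 cells), each named by its first and last residue. The control, HT1080, bears the label scrambled control, while the study calls it parental, and each line was grown for 72 h before RNA extraction. No line was replicated, no p-value could be given, and a difference compares 2 arrays, not 2 conditions. A change in histone mRNA per cell and a change in the share of cells in S phase cannot be told apart in such bulk samples.

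The promoters of 5 members are shown because their genes carry the differences described below: the 3 genes that were at least 2-fold lower in shPTK7 cells (HIST1H1C, HIST1H2BD and HIST1H2BJ), the bright H2B gene HIST1H2BK that was lower beside them, and the H3 gene HIST1H3E that was higher in all 6 derived lines. Each runs from 250 bases before to 50 bases after the transcription start of the RefSeq annotation of GRCh38.p14, read 5′ to 3′ on the strand of the gene. The windows are chr6:26056421-26056720 (minus strand), chr6:26157871-26158170 (plus strand), chr6:27132746-27133045 (minus strand), chr6:27146809-27147108 (minus strand) and chr6:26223928-26224227 (plus strand). Capitals mark 3 motifs searched on both strands: the octamer bound by OCT1 (ATTTGCAT), the CCAAT box bound by NF-Y (CCAAT, or ATTGG on the other strand) and the TATA box (TATAAA, or TTTATA on the other strand). Near the 5′ end of the HIST1H2BJ and HIST1H2BK windows TATA matches on opposite strands overlap.
HIST1H1C: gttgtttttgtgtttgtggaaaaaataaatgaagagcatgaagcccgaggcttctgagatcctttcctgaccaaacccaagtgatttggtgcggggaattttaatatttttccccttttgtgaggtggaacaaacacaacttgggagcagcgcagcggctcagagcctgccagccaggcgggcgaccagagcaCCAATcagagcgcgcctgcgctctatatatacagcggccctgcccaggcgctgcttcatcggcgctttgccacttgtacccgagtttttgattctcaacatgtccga
HIST1H2BD: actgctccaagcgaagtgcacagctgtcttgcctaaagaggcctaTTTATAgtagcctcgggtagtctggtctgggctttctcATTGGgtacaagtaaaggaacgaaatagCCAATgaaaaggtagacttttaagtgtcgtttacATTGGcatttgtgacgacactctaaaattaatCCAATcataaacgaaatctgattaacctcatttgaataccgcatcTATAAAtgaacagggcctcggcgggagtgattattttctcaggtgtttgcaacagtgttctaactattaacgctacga
HIST1H2BJ: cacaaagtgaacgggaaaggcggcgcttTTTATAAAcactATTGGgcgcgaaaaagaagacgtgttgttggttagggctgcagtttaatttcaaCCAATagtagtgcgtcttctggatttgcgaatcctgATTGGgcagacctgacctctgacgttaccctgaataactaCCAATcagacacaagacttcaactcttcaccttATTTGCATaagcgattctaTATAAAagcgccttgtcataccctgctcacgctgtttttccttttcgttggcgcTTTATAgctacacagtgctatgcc
HIST1H2BK: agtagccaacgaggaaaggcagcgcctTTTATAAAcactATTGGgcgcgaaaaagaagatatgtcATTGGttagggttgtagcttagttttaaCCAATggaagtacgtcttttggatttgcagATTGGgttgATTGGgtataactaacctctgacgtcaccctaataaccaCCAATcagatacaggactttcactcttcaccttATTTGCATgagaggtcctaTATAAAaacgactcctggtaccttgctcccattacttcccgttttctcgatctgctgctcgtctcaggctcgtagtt
HIST1H3E: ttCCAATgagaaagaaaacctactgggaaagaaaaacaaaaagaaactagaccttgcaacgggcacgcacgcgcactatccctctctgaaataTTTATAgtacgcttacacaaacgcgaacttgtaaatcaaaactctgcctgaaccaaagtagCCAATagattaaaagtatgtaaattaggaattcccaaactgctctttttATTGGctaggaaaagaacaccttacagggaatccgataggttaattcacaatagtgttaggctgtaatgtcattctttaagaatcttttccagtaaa

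The octamer was present in the HIST1H2BJ and HIST1H2BK windows, with its first base at -47 and -46 from the start, and not in the other 3. Of the 27305 RefSeq promoters 1.8% held it, against 26 of the 65 histone genes with both a probe and a promoter entry (40%): 14 of 18 H2B genes, 11 of 16 H2A genes, 1 of 12 H3 genes and none of the 6 H1 or 13 H4 genes. The 1 H3 gene, HIST1H3D, has the same window as the H2A gene HIST1H2AD, so that sequence is counted in both classes. The CCAAT box was in 84.6% of the histone promoters, against 35.7% of all promoters, and the TATA box in 66.2% against 12%. The HIST1H4H window held none of these 3 motifs. A match in these windows is a description of the letters and not evidence of binding.

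Signals are given after background correction and quantile normalization between arrays, on a linear scale, and a log2 fold is the log2 signal of a line minus that of HT1080. A probe that was not detected on an array was set to the lowest detected signal there (53.8 to 60.9 after normalization), so a fold that involves such an array is a lower bound. A member was called higher or lower at a fold of at least 2 with detection on the higher array. The arrays detected 19045 to 20515 of 47230 probes each, and 24 to 29 of the 35 members. PTK7 itself had 2 probes, whose non-normalized signals were 189 and 135 in shPTK7 cells (detection p of 0.0714 and 0.877), against 196 and 246 in HT1080 cells (0.0429 and 0.00519). In PTK7 cells they were 169 and 247, so neither probe was clearly above its HT1080 value, and whether the probes lie within the transfected constructs is not known here. Neither probe was detected in sPTK7 (144 and 141), cPTK7/622-1070 (139 and 173) or cPTK7/726-1070 cells (149 and 149), as in shPTK7 cells. Chz cells had signals of 210 and 296. A low PTK7 signal on these probes was therefore not particular to the silenced line. At the protein level, the study reports by immunoblot that silencing in shPTK7 cells was efficient. It also reports the tagged PTK7, sPTK7 and Chz constructs at comparable levels in their lines. Fibroblast and fibrosarcoma markers were detected for 8 of 10 listed genes (THY1 was not), and of the markers of other cell types with a probe 1 of 5 epithelial genes (EPCAM, on 1 array), 2 of 4 leukocyte genes (CD14 on 6 arrays and CD79A on 4) and 1 of 5 endothelial genes (TEK, on 2 arrays) were detected, while CDH1, KRT5, KRT14, KRT19, PTPRC, CD3E, PECAM1, CDH5, VWF and KDR were not detected on any array. COL4A1 and CDH2 were at least 2-fold lower in PTK7 and cPTK7/726-1070 cells, and their part in the histone values was not tested.

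In shPTK7 cells the linker histone gene and most H2A and H2B genes were lower than in HT1080 cells, while the H3 and H4 genes lay on both sides of it. HIST1H1C, HIST1H2BD and HIST1H2BJ were called lower, 3 of the 35 members, where 1.59% of all detected genes were called lower. HIST1H3E was the 1 member called higher, where 1.19% of all detected genes were. Over the 30 members detected on either array the median log2 fold was -0.49, while over all detected genes it was 0.01. The 19 members detected on all 7 arrays had a median of -0.57. Among these 19 the 12 H1, H2A and H2B genes had a median of -0.78, with 11 of them below 0, and the 7 H3 and H4 genes a median of 0.12, with 2 below 0. All H3 and H4 genes among them but HIST1H4C were dim, with mean non-normalized signals of 240 to 378. Class and signal strength are therefore not fully separate in this split. Over all 70 genes with a probe, most of them undetected, the shPTK7 median was -0.05. That value is the difference between the lowest detected signals of the 2 arrays and does not measure the histone genes.

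The 2-fold calls depend on the background correction: without it, and in the authors' normalized table, no member was called in any line, and the median was -0.21 and -0.24 in shPTK7 cells and -0.13 and -0.14 in cPTK7/622-1070 cells. HIST1H1C, which is far above background, was at -0.95 and -0.94 in shPTK7 cells under these settings and at -0.89 without normalization between arrays, just short of the call, and HIST1H2BK at -0.90 in both.

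HIST1H1C, which encodes the linker histone H1.2, had a normalized signal of 1794 in shPTK7, 3126 in PTK7, 3442 in Chz, 2938 in sPTK7, 2175 in cPTK7/622-1070, 3138 in cPTK7/726-1070 and 3602 in HT1080 cells. It was lowest in shPTK7 cells, 2.01-fold below HT1080 (log2 fold -1.01), next lowest in cPTK7/622-1070 cells (1.66-fold lower), and within 1.23-fold of HT1080 in the other 4 lines. It was the only H1 gene of 6 that was detected on any array.

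The H2B gene HIST1H2BJ had a normalized signal of 132 in shPTK7, 353 in PTK7, 211 in Chz, 272 in sPTK7, 193 in cPTK7/622-1070, 285 in cPTK7/726-1070 and 358 in HT1080 cells. The shPTK7 value was 2.71-fold lower than that of HT1080 (log2 fold -1.44), the lowest log2 fold of any member in any line. All 6 derived lines lay below HT1080, PTK7 cells by only 0.02 on the log2 scale.

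HIST1H2BK, an H2B gene with a strong signal, stood at 8429 in shPTK7, 16697 in PTK7, 13271 in Chz, 14316 in sPTK7, 13554 in cPTK7/622-1070, 17083 in cPTK7/726-1070 and 15885 in HT1080 cells. Only the shPTK7 array fell outside the narrow band of the other 6, at 1.88-fold below HT1080, just short of the call. A second HIST1H2BK probe gave 2.23-fold lower in shPTK7 cells and values within 1.25-fold of HT1080 in the other lines.

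Each of the 5 H2A genes detected on all arrays was lower in shPTK7 cells than in HT1080 cells, although none reached 2-fold. HIST1H2AC had a normalized signal of 481 in shPTK7 and 903 in HT1080 cells (log2 fold -0.91), and HIST2H2AC 598 in shPTK7 and 1075 in HT1080 cells (-0.85). HIST3H2A, HIST2H2AA3 and HIST2H2AA4 had log2 folds of -0.57, -0.57 and -0.62. The last 2 are near-identical copies whose signals cannot be assigned to 1 gene with certainty, and a second HIST2H2AA3 probe showed no such difference (log2 fold -0.02). Of the other H2B genes detected on all arrays, HIST1H2BC (-0.72) and HIST2H2BE (-0.69) were lower in shPTK7 cells, and HIST1H2BN was level (0.02).

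The 6 members named above for their polyadenylated transcripts, all of them H1, H2A or H2B genes, were below HT1080 in shPTK7 cells, with log2 folds between -0.69 and -1.19 and a median of -0.91. In cPTK7/622-1070 cells all 6 were below HT1080 as well, with a median of -0.54. The other 13 members detected on all 7 arrays had a median of -0.41 in shPTK7 cells, with 6 above and 7 below HT1080, and of -0.37 in cPTK7/622-1070 cells, with 3 above and 10 below. Class and transcript type cannot be told apart in these members, since none of the 6 is an H3 or H4 gene. The 6 are not a full list, and whether the other 13 also give polyadenylated transcripts was not tested. Of the 9 members with a mean signal of at least 500, 8 were below HT1080 in shPTK7 cells. The limit was set after the values were seen. The median of the 9 was -0.85, where the 6903 genes of that brightness had a median of 0.02. These 8 are H1, H2A and H2B genes named above, so they are not added evidence. HIST1H4C, the brightest of the 9, was not below HT1080 (0.13).

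**Figure D1:**
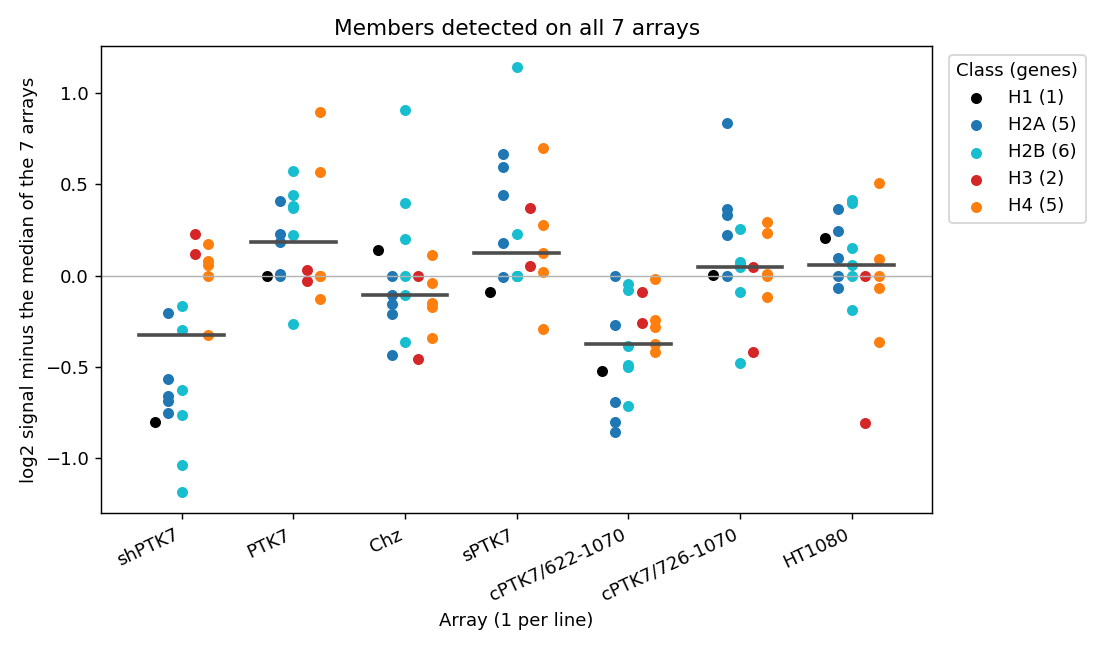
Normalized log2 signal of the 19 members detected on all 7 arrays, each minus its own median over the 7 arrays, by array; points are genes coloured by class and the bars are the medians. The medians were -0.32 in shPTK7 and -0.38 in cPTK7/622-1070, against 0.06 in HT1080 and between -0.11 and 0.18 in the other 4 lines.

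In cPTK7/622-1070 cells most H1, H2A and H2B members were also below HT1080. HIST1H2BC was called lower, 1 of 35 members, where 0.755% of all detected genes were called lower, and no member was called higher (0.696% of all). The median log2 fold was -0.33 over 31 members, and -0.39 over the 19 detected on all arrays, of which 16 were below 0. Over all 70 genes with a probe and no filter on detection it was 0.0374. That value is again only the difference between the lowest detected signals of the 2 arrays. The median over all detected genes was 0.0029. The 5 H2A genes had log2 folds between -0.37 and -0.86, with HIST2H2AA3 at -0.86, HIST2H2AC at -0.79 and HIST2H2AA4 at -0.73. The second HIST2H2AA3 probe gave only -0.08 in these cells, and HIST2H2AA3 and HIST2H2AA4 are the near-identical copies named above. The 12 H1, H2A and H2B genes had a median of -0.64 with 11 below 0, and the 7 H3 and H4 genes a median of -0.09 with 5 below 0. The 9 members with a mean signal of at least 500 had a median of -0.52, with 8 below 0. The shPTK7 and cPTK7/622-1070 folds were taken against the same HT1080 array and are therefore not independent of each other. Set against the median of the 7 arrays in place of HT1080, the members had medians of -0.17 in shPTK7 and -0.23 in cPTK7/622-1070 cells. The PTK7 median was 0.22 in this setting, larger in size than that of shPTK7 cells. Chz, sPTK7 and cPTK7/726-1070 cells were at -0.04, 0.07 and 0.05.

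HIST1H2BC, an H2B gene of the large chromosome 6 cluster, had a normalized signal of 107 in shPTK7, 179 in PTK7, 174 in Chz, 132 in sPTK7, 80.3 in cPTK7/622-1070, 94.6 in cPTK7/726-1070 and 176 in HT1080 cells. The lowest signals were those of the 2 C-terminal fragment lines, 2.19-fold and 1.86-fold below HT1080, and the PTK7 and Chz arrays were level with it. The gene is close to the detection limit on several arrays.

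The sPTK7 cells showed a different picture, with 3 members called higher and none lower, where 1.83% of all detected genes were called in each direction. The called genes were HIST1H2BD, HIST1H3E and HIST1H4H, which encode an H2B, an H3 and an H4. The median of the 30 members was -0.04 and turned to 0.002 with 75th percentile scaling, so it had no settled sign. HIST2H2AA3 and HIST2H2AA4 were 1.51-fold and 1.67-fold higher.

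HIST1H2BD had the widest range of the members, 2.33 on the log2 scale. Its normalized signal was 202 in shPTK7, 685 in PTK7, 864 in Chz, 1016 in sPTK7, 352 in cPTK7/622-1070, 433 in cPTK7/726-1070 and 460.2 in HT1080 cells. It was the only member called in opposite directions, 2.28-fold lower in shPTK7 cells and 2.21-fold higher in sPTK7 cells, and the 2 arrays were 5.03-fold apart. The 3 lines whose construct holds the PTK7 ectodomain (PTK7, Chz and sPTK7) were above HT1080 and the other 3 below it. A second probe of the gene gave -0.67 in shPTK7 and 0.48 in sPTK7 cells, so neither call was reached with it, and it gave 0.85 in PTK7, 0.32 in Chz, -0.31 in cPTK7/622-1070 and 0.01 in cPTK7/726-1070 cells. The sign was that of the first probe in all lines but cPTK7/726-1070, where the first probe gave -0.09.

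HIST1H3E, an H3 gene, had a normalized signal of 161 in shPTK7, 141 in PTK7, 138 in Chz, 179 in sPTK7, 115 in cPTK7/622-1070, 103 in cPTK7/726-1070 and 78.7 in HT1080 cells. The HT1080 array was the lowest of the 7, so that all 6 derived lines were higher, by 1.31-fold to 2.27-fold. Against the median of the 7 arrays the difference was only 0.23 on the log2 scale in shPTK7 and 0.37 in sPTK7 cells, and the probe is dim. At a detection p under 0.01 the shPTK7 log2 fold was 0.89 and no longer a call. HIST1H4H, an H4 gene, had a signal of 132 in shPTK7, 173 in PTK7, 114 in Chz, 190.0 in sPTK7, 87.4 in cPTK7/622-1070, 117 in cPTK7/726-1070 and 90.9 in HT1080 cells. It was highest in sPTK7 and PTK7 cells, 2.09-fold and 1.90-fold above HT1080, and level with it in cPTK7/622-1070 cells, and the sPTK7 call was lost without normalization between arrays (log2 fold 0.94).

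**Figure D2:**
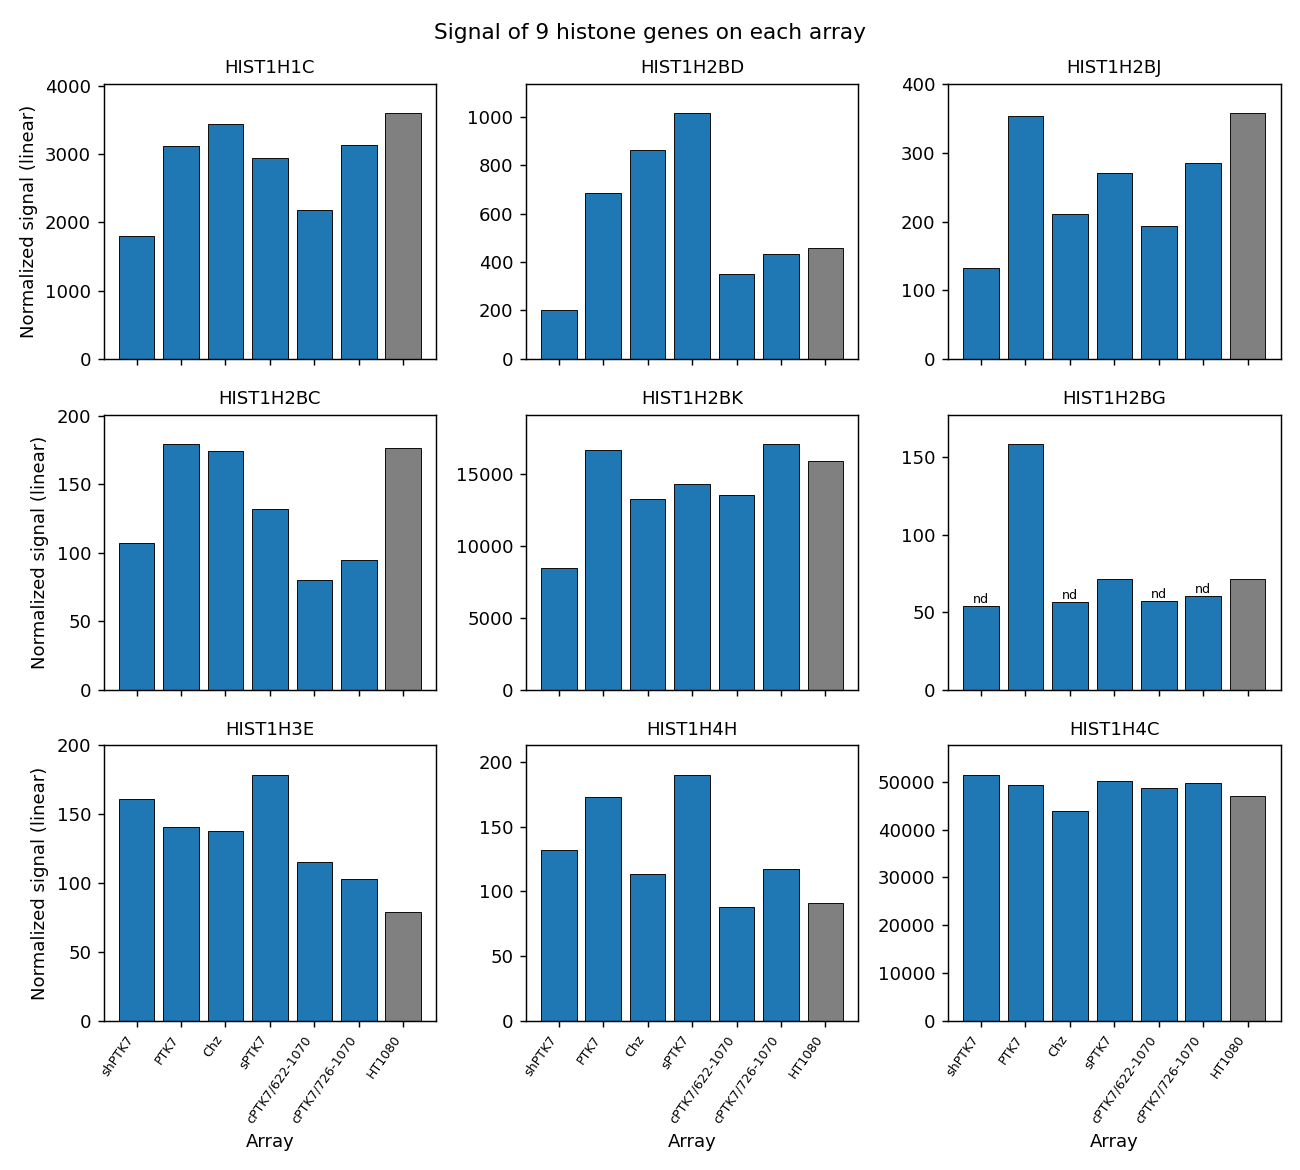
Normalized linear signal of 9 members on each array (1 array per line, HT1080 in grey; nd, not detected and drawn at the floor). HIST1H1C, HIST1H2BJ, HIST1H2BD and HIST1H2BK were lowest in shPTK7 cells, HIST1H2BC was lowest in cPTK7/622-1070 cells, HIST1H3E was lowest in HT1080 cells, and HIST1H4C was nearly flat.

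In PTK7 cells HIST1H2BG was called higher, 1 of 35 members, where 2.46% of all detected genes were called higher, and no member was called lower (3.5% of all). HIST1H2BG, an H2B gene, had a normalized signal of 158 in PTK7 cells, 71.5 in sPTK7 cells and 71.7 in HT1080 cells and was not detected in the other 4 lines. PTK7 cells therefore stood alone, 2.21-fold above HT1080. The H4 genes HIST1H4H and HIST1H4K were 1.90-fold and 1.87-fold higher in PTK7 cells. The HIST1H2BG call was lost at a detection p under 0.01 (log2 fold 0.87) and without normalization between arrays. The median of 31 members was 0.07, and -0.04 without that normalization.

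No member was called in Chz cells, where 2.05% of all detected genes were called higher and 1.77% lower, and none in cPTK7/726-1070 cells, where 1.49% were called higher and 1.55% lower. The medians were -0.10 over 29 members in Chz cells and 0.06 over 30 members in cPTK7/726-1070 cells, where it was -0.10 without normalization between arrays. The members that came closest were HIST1H2BD in Chz cells (1.88-fold higher) and HIST1H2BC in cPTK7/726-1070 cells (1.86-fold lower). Of the 5 H2A genes detected on all arrays, 4 were below HT1080 in Chz cells, with a median of -0.40 over the 5. HIST3H2A was at -0.58 there, close to its value in shPTK7 cells. A count of 0 or 1 among 35 members is near these background shares.

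Since few members reached 2-fold, they were also counted at 1.5-fold, a limit chosen after the values were seen. In shPTK7 cells 11 of 35 members (31.4%) were lower, where 6.29% of all detected genes were, and 1 was higher (5.33% of all). In cPTK7/622-1070 cells 9 members (25.7%) were lower, where 4.08% of all detected genes were, and 1 was higher (3.88% of all). These were the 2 lines whose count of lower members stood furthest above the background share. In PTK7 cells 5 members were higher and 3 lower, where 8.52% and 9.87% of all detected genes were. In Chz cells 3 were higher and 4 lower (7.7% and 7.35% of all). In sPTK7 cells 5 members (14.3%) were higher and 3 lower, where 6.25% and 5.62% of all detected genes were. In cPTK7/726-1070 cells 0 were higher and 3 lower (5.93% and 6.65% of all). HIST1H2AB, detected in HT1080 cells alone, is counted as lower in every derived line through its HT1080 value. HIST1H3F, highest in HT1080 cells, is counted as lower in every derived line but shPTK7. The near-identical copies HIST2H2AA3 and HIST2H2AA4 are both counted as lower in cPTK7/622-1070 cells.

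HIST1H4C, an H4 gene, varied least among the members detected on all arrays. Its normalized signal was 51487 in shPTK7, 49445 in PTK7, 43951 in Chz, 50101 in sPTK7, 48834 in cPTK7/622-1070, 49706 in cPTK7/726-1070 and 47149 in HT1080 cells, a range of 0.23 on the log2 scale. Its non-normalized signals of 45823 to 52402 were not far from the highest signal on the arrays (65781 to 70651), and whether a difference is compressed there was not tested. The other H4 genes detected on all arrays were dim: HIST2H4A and HIST2H4B, near-identical copies, had log2 folds of -0.41 and -0.51 in shPTK7 cells, and HIST1H4K had 0.08. HIST1H3H, the other H3 gene detected on all arrays, differed from HT1080 by 0.12 in shPTK7 cells.

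The remaining 16 members were detected on 1 to 6 arrays, with non-normalized signals of 109 to 291 on any array. Of these, 7 were detected on 1 array only: HIST1H2AB, HIST1H2AK, HIST1H3A, HIST1H3D, HIST3H3, HIST1H4B and HIST1H4G. HIST1H2AB was detected in HT1080 cells alone and so was at least 1.70-fold to 1.92-fold lower in every derived line, a bound that the single HT1080 value sets. HIST1H3C was 1.64-fold lower in shPTK7 and 1.65-fold higher in PTK7 cells, and HIST1H2AG was 1.34-fold higher in shPTK7 cells. The other 35 genes with a probe were not detected on any array, and 1 further histone probe that matches several genes was left unnamed.

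Many H2A and H2B genes lie head to head with a short shared promoter. HIST1H2BC and HIST1H2AC, whose starts are 246 bases apart, were both lower in shPTK7 cells (log2 folds -0.72 and -0.91) and in cPTK7/622-1070 cells (-1.13 and -0.52). HIST2H2BE and HIST2H2AC, 236 bases apart, were likewise both lower in shPTK7 (-0.69 and -0.85) and in cPTK7/622-1070 cells (-0.56 and -0.79). HIST1H2BJ and HIST1H2AG, 248 bases apart, were not alike in shPTK7 cells, at -1.44 and 0.43. They also differed in sign in cPTK7/622-1070 (-0.89 and 0.45), Chz (-0.76 and 0.65) and sPTK7 cells (-0.40 and 0.44). HIST1H2AG was detected on only 6 arrays and near the limit. HIST1H2BC and HIST1H2AC differed in sign in sPTK7 cells (-0.42 and 0.20), as did HIST2H2BE and HIST2H2AC in Chz cells (0.14 and -0.53).

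Among the 18 members detected on all arrays that have a promoter entry, the 6 whose promoter holds the octamer (HIST1H2AC, HIST2H2AC, HIST1H2BC, HIST1H2BJ, HIST1H2BK and HIST2H2BE) were all lower in shPTK7 cells, with a median log2 fold of -0.88. Of the 12 without it, 7 were lower and the median was -0.46. All 6 of these octamer genes encode H2A or H2B, so that motif and class cannot be told apart over the whole list. HIST1H2AC, HIST1H2BC, HIST1H2BK and HIST2H2BE are also among the members named for polyadenylated transcripts, so motif and transcript type overlap. Within H2A and H2B, the 5 genes without the octamer had a median of -0.57, with 4 of the 5 lower, and they include HIST1H2BD. In cPTK7/622-1070 cells the medians were -0.67 with the octamer and -0.37 without it. Some octamer genes were detected on fewer arrays, among them those of shPTK7 and HT1080. Of these, HIST1H2AG (0.43) and HIST2H2BF (0.37) were higher in shPTK7 cells and HIST1H2BM (-0.10) was lower.

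Genes that act around histone supply did not share the shift in shPTK7 cells. The 23 DNA replication and S phase genes detected on either array had a median log2 fold of -0.05 with 0 called, the 16 genes of G2 and mitosis 0.06 with 0 called, the 12 G1/S regulators detected on either array 0.04 with 0 called, the 15 histone chaperones 0.02 with 0 called, and the 19 detected genes of histone gene transcription and 3′ end processing 0.11 with 0 called. PCNA, the replication clamp, was lower in shPTK7 cells by 0.55 and in cPTK7/622-1070 cells by 0.54 on the log2 scale, but did not reach 2-fold. In cPTK7/622-1070 cells it was the lowest of the 23 replication genes, whose median was 0.10 with 20 above HT1080. NPAT and SLBP had log2 folds of 0.19 and -0.17 in shPTK7 cells. In the other lines a few of these genes were called: ERI1, an exonuclease of histone mRNA decay, and RB1, the retinoblastoma gene, were lower in PTK7 cells (ERI1 at the 2-fold limit, RB1 by 2.19-fold), NFYA, a subunit of the CCAAT-binding factor, was higher in sPTK7 cells (1.09), and GINS1, a replication fork protein, was higher in cPTK7/726-1070 cells (1.30). Of all detected genes 3.5% were called lower in PTK7 cells, 1.83% higher in sPTK7 cells and 1.49% higher in cPTK7/726-1070 cells.

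The replication-independent histone variants are for the most part, but not all, made throughout the cell cycle from polyadenylated mRNAs. Their median was 0.01 in shPTK7 cells, with 2 of the 10 detected genes called lower, where 1.59% of all detected genes were. H2AFJ, an H2A variant, had a normalized signal of 422 in shPTK7, 2027 in PTK7, 1559 in Chz, 2521 in sPTK7, 677 in cPTK7/622-1070, 1251 in cPTK7/726-1070 and 1240.4 in HT1080 cells. Its lowest array was shPTK7 (log2 fold -1.55) and its highest sPTK7 (1.02), which are also the lowest and the highest arrays of HIST1H2BD. H2AFY2, the macroH2A2 gene, was lower in shPTK7 (-1.30) and in sPTK7 cells (-1.35), and H2AFZ was level with HT1080 in shPTK7 cells (-0.04).

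**Figure D3:**
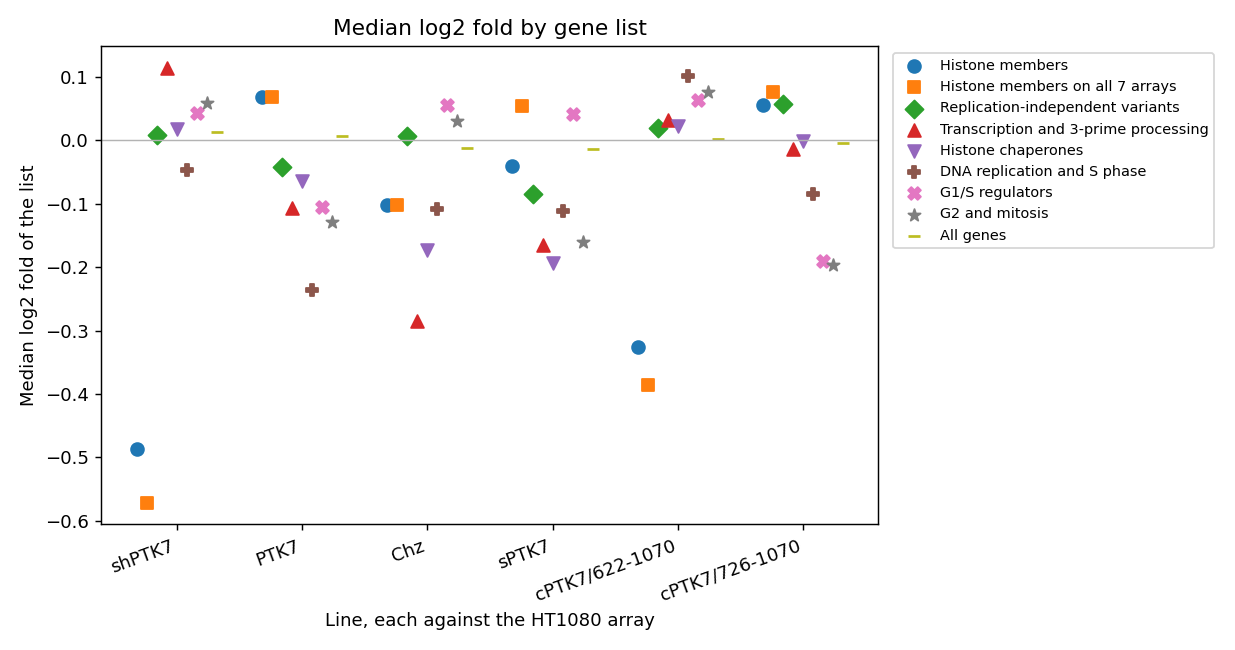
Median log2 fold of the histone members, those of them detected on all 7 arrays, 6 lists of genes around histone supply and the cell cycle, and all detected genes, in each derived line against HT1080 (marker lists are not drawn). The histone members lie at -0.49 in shPTK7 and -0.33 in cPTK7/622-1070, below the 6 other lists and all genes in those 2 lines, and between -0.10 and 0.07 in the other 4 lines.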

How the data were processed

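RNA from each of the 7 lines was labelled and hybridized to 1 Illumina HumanHT-12 v4 BeadChip array. The deposited non-normalized table holds, for each of 47230 probes, an intensity (the mean bead signal) and a detection p-value, as the authors obtained them from the BeadArray Reader. A second deposited table holds intensities normalized by the authors in GeneSpring GX and served as an alternative. Signals were corrected for background by normexp from the detection p-values (limma 3.58.1 in R 4.3.3), raised by an offset of 16, quantile normalized and taken to log2. Gene names came from the platform annotation through entrez IDs, where 30112 probes name 1 gene, 8 several and 17110 none. Members called at 2-fold in any line and the brightest members are given on every array, the others by range and count. Members and lists were chosen with earlier results of these data known. Their number, 1 per line, limits the precision. Alternatives covered background, scaling, floor, detection, probe choice and the control.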

Additional observations from a re-analysis of the deposited data

Results flagged for a closer look

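HIST1H2BD was picked out because it passed 2-fold in opposite directions in 2 lines, with a log2 fold of 1.14 in sPTK7 cells and of -1.19 in shPTK7 cells, each against HT1080. The difference between the lines was not tested, since each has 1 array. Both values kept their sign under all 8 alternatives run for single genes, between 0.81 and 1.14 in sPTK7 and between -1.19 and -0.78 in shPTK7 cells.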

How the results depend on the processing

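No paired analysis was possible because each line had 1 array. With the filter on detection kept, the shPTK7 median stayed below 0 under every alternative. It lay between -0.85 (members with a mean signal of at least 500) and -0.17 (against the median of the 7 arrays). The sPTK7 median was 0.002 with 75th percentile scaling, 0.068 against the median of the 7 arrays, 0.0928 with no filter, 0.0548 over members detected on all arrays and 0.0876 over members with a mean signal of at least 500, against -0.04 as reported. Without normalization between arrays the PTK7 median was -0.0421 and the cPTK7/726-1070 median -0.0986. With no filter the shPTK7 median was -0.05, the Chz median 0.0187 and the cPTK7/622-1070 median 0.0374. The 35 genes added with no filter were undetected on every array and so sit at the floor on both arrays compared. Each median with no filter, also that of sPTK7 cells, is the difference between the 2 array floors and does not measure the histone genes. For the other settings the cause was not tested. The members detected on all arrays, the signal limit of 500, the 1.5-fold limit, 1 gene per pair of copies and the single-gene values were chosen after seeing the data. Counts moved more: without a floor 5 members were lower and 2 higher in shPTK7, 2 higher and 1 lower in PTK7, 1 lower in Chz, 2 lower in sPTK7, 2 lower in cPTK7/622-1070, and 1 higher and 1 lower in cPTK7/726-1070 cells. Against the median of the 7 arrays 0 members were higher in shPTK7, 1 higher in sPTK7 and 0 lower in cPTK7/622-1070 cells. At a detection p under 0.01, 26 members were left, with 0 higher in shPTK7 and in PTK7 cells. Without normalization 0 were higher in PTK7, 2 higher in Chz and 1 lower in cPTK7/726-1070 cells, and with 75th percentile scaling 1 was lower in Chz cells. None of the 11 single-gene values changed sign, with the widest ranges for HIST1H2BG in PTK7 cells (0.47 to 1.40) and HIST1H3E in shPTK7 cells (0.23 to 1.14). Members with signals near the floor have little range in which to be lower.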
